A study of Mus musculus with 24 samples.

Results

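This account concerns the effect of the caNrf2 transgene on the colon wall of mice that received no dextran sulfate sodium (DSS), an agent used to injure the colonic mucosa. It compares the 4 libraries titled as transgenic water colon with the 4 titled as wild-type water colon, 8 of the 24 libraries of the series, over all genes. The transgenic mice were C57Bl/6 with the genotype VilCre-CMVcaNrf2, untreated. The control mice were C57Bl/6 with the genotype VilCre, untreated, so both groups carried the Cre recombinase. Each library was made from RNA of a piece of whole colon wall cut close to the rectum. The other 16 libraries are transgenic and control colon wall after DSS and transgenic and control colon epithelial cells without it, 4 libraries each. The DSS wall libraries were fitted together with the untreated wall libraries. They therefore also enter the gene filter, the scaling and the estimate of variation behind the untreated p-values. Apart from that joint fit, the other 16 libraries are used here only where they show how the untreated wall differs. The series title asks how caNrf2 expression and DSS shape messenger RNA levels in the colon.

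NRF2, encoded by Nfe2l2, is a transcription factor that the adaptor KEAP1 normally holds in the cytoplasm and hands to the proteasome. Oxidants and electrophiles disable KEAP1. NRF2 then enters the nucleus, pairs with a small MAF protein and binds antioxidant response elements, whose core reads TGACNNNGC. Its textbook targets make and use glutathione, reduce quinones, produce NADPH and pump conjugates out of the cell. caNrf2 stands for a constitutively active NRF2. The villin promoter, from which VilCre takes its name, is active in gut epithelium, whereas the wall also holds muscle, nerves, vessels and immune cells. A level in whole wall is an average over these cells, and fewer cells of a type cannot be told apart from less RNA per cell. The sources used here do not give age, the hour of sampling or whether the transgene transcript was counted under Nfe2l2.

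Promoters were read from RefSeq (GRCm38.p6), from 250 bases before to 50 bases after the annotated start, on the gene's own strand. The TGACNNNGC core was searched on both strands, and read along the gene a match on the other strand is GCNNNGTCA. Genes are named as called where their adjusted p was below 0.05. Of the 22 genes called higher, 16 had a promoter available, and 7 of these held the core in at least 1 promoter (43.8%). The same was true of 1 of 10 such genes among the 14 called lower (10.0%). Among all genes tested it was true of 1901 of 11271 (16.9%). Among the genes of the NRF2 lists described below it was true of 26 of 111 (23.4%). Gclc and Slc7a11, which were called higher, were not among the genes with a match. A gene with several annotated starts counted once, but had more windows in which a match could occur. These shares describe letters in a window and are not evidence of binding. The sequences shown here, with the core in capitals, are those of 3 called genes with a match and of Gclm and Gsta3, which are list members that were not called. In Abcc2, an efflux pump for glutathione conjugates, the match begins at position -98 from the start (chr19:43782058-43782357, plus strand). In Cyp4f39, a cytochrome P450 that hydroxylates fatty acids, it begins at position 25 (chr17:32452473-32452772, plus strand). In Ikbkg, which encodes the regulatory subunit NEMO of IκB kinase, it lies at position -38 of the second of 4 annotated starts (chrX:74424362-74424661, plus strand). In Gclm, the modifier subunit of glutamate-cysteine ligase, it begins at position -134 (chr3:122245307-122245606, plus strand), and in Gsta3, a glutathione S-transferase, at position -121 (chr1:21240335-21240634, plus strand).
Abcc2: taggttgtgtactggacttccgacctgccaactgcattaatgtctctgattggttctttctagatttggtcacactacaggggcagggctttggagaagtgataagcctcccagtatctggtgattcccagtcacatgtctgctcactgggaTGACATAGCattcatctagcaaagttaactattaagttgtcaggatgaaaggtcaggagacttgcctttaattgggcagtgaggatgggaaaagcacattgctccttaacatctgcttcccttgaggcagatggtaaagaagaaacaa
Cyp4f39: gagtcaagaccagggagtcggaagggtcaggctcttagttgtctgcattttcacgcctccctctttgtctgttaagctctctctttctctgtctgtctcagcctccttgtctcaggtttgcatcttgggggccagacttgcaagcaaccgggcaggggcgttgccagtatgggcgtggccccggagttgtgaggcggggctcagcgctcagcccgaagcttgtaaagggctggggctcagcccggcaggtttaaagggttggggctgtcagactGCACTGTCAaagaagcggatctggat
Ikbkg, second start: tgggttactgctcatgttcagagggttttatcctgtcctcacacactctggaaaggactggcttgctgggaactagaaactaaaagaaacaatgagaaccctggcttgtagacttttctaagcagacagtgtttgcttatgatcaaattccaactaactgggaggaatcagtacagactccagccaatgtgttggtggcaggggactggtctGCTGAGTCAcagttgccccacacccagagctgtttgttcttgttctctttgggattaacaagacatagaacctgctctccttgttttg
Gclm: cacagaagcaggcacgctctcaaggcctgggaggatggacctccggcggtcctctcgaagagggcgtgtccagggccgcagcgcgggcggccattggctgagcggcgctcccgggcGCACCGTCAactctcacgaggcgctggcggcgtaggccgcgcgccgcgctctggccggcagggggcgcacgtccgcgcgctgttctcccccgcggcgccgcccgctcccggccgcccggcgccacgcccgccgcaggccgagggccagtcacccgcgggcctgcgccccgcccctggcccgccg
Gsta3: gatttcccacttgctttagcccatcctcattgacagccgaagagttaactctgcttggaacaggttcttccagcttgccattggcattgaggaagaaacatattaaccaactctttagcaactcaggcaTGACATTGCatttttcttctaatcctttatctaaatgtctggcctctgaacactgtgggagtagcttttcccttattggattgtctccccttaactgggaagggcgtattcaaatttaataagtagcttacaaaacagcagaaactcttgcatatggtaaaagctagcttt

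Library totals ran from 21493139 to 154335999 counts in transgenic wall and from 22823662 to 105029745 counts in control wall, and transgenic replicate 2 was the deepest of the 8. Values are CPM, counts scaled to the TMM-adjusted library size. Nfe2l2 (chromosome 2, 75675519 to 75704641, minus strand) was at 189.7, 147.6, 201.8 and 238.5 CPM in the transgenic libraries, against 99.5, 129.7, 120.9 and 146.2 CPM in the controls. The groups did not overlap, but transgenic replicate 2 lay within 2 CPM of the highest control. The fitted difference was a log2 fold change of 0.65 ± 0.19 (SE) and missed the threshold (adjusted p = 0.199, edgeR's quasi-likelihood test). Keap1 was at 87.5, 68.9, 77.1 and 64.2 CPM in transgenic wall, against 50.9, 51.6, 52.9 and 61.3 CPM in control wall (0.46 ± 0.12, adjusted p = 0.139, edgeR). Among the other known partners, Mafg, a small MAF protein, was fitted 0.62 ± 0.20 higher and Bach1, a repressor at the same elements, 0.74 lower on the log2 scale (adjusted p = 0.239 and 0.234, edgeR).

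The library labelled transgenic replicate 2 stood apart from the other 3 transgenic libraries at NRF2 target genes, and it was kept in its group. The NRF2 lists, 8 in number, held 130 genes tested. Of these, 40 were higher at an unadjusted p below 0.05 (30.8%, against 6.2% of all genes), and 1 was lower (4.26% of all genes were). The lists were chosen with earlier results of these data known. They leave out the 24 proteasome subunits, a further known class of NRF2 targets, of which 0 were higher and 1 lower at that threshold. In 34 of the 40, replicate 2 was the lowest transgenic library, and in 25 of the 40 it was at or below the highest control. Over the 130 genes, 16 had no overlap between the groups with the transgenic libraries higher (12.3%, against 3.79% of all genes). Without transgenic replicate 2 there were 52 such genes (40%, against 5% of all genes). Leaving out transgenic replicate 1, 3 or 4 instead gave 18, 16 and 24 genes, where 4.63%, 4.43% and 9.07% of all genes had no overlap and were higher. These leave-out counts were added after the values were seen. In wall, replicate 4 of each group carries another first number in its deposited name than the 12 other libraries, and the sources used here do not say what that number stands for.

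Of 16074 genes tested, 36 passed an adjusted p of 0.05 (0.224%). In transgenic wall, 22 were higher (0.137%) and 14 lower (0.0871%). The groups did not overlap in 18 of the 22 and in 13 of the 14, against 6.64% of all genes in either direction. More than 2-fold differences were seen in 19 of the 22 and 11 of the 14. These genes were chosen by a test on the same values, so both counts follow from that choice and lend the calls no support. The median log2 fold change over all genes was -0.02, and 47.2% were fitted above 0. Without transgenic replicate 2, the count was 41 (0.255%), with 34 higher (0.211%) and 7 lower (0.0435%), and it shared 25 genes with the 36. Without control replicate 4, 320 genes were called (1.99%), with 224 higher (1.39%) and 96 lower (0.596%), and these included all 36. Without transgenic replicate 4, 122 passed, and without any 1 of the other transgenic or control libraries the count fell to between 5 and 9. With only the 12 wall libraries of the first number, 404 passed (2.53%), 258 of them higher (1.62%) and 146 lower (0.916%), and 34 of the 36 were among them.

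**Figure D1:**
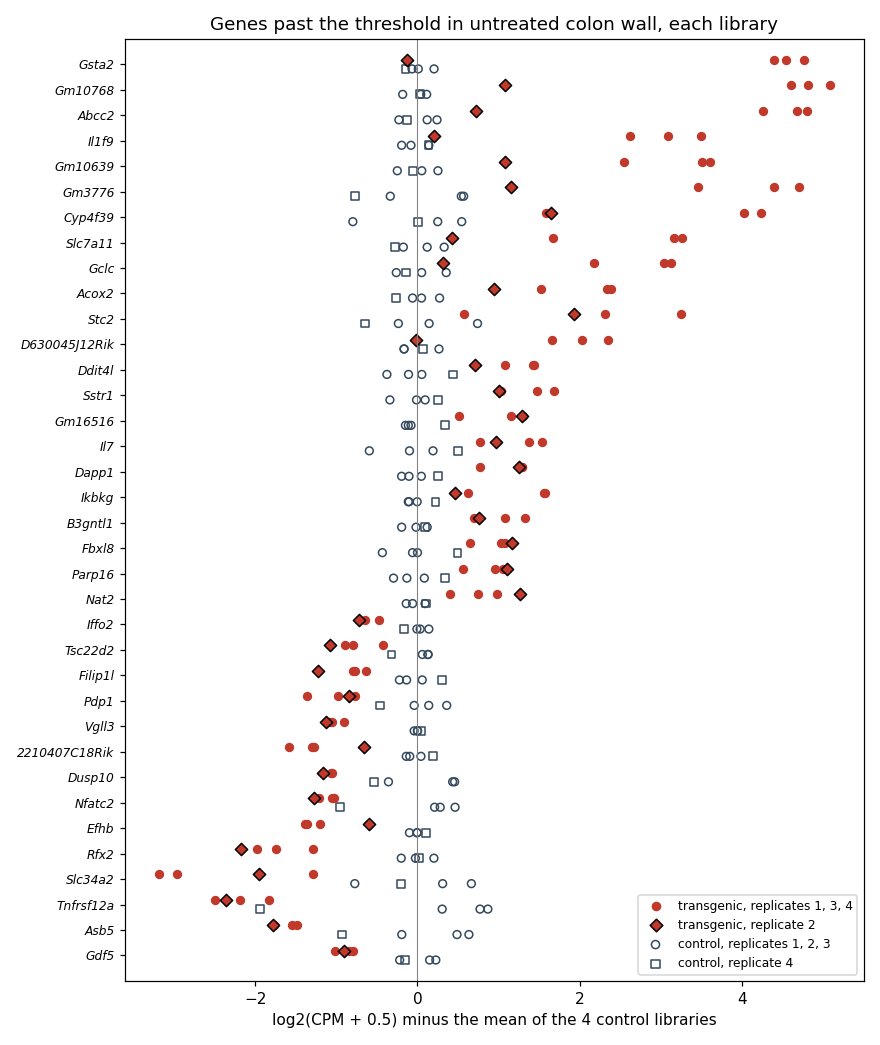
Each row is 1 of the 36 genes past an adjusted p of 0.05, and each point is 1 library, placed by its log2(CPM + 0.5) minus the mean of the 4 control libraries. In the upper rows, from Gsta2 to Gclc, transgenic replicate 2 (diamond) lies far to the left of most other transgenic libraries, whereas in the rows of the lower genes it lies to the left of all controls.

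The 22 genes called higher divide by which transgenic library was the lowest, replicate 2 in 13 and replicate 4 in 9. Replicate 2 was less than 0.5 times the lowest of the other 3 transgenic libraries in 9 of the 22. Abcc2 (chromosome 19, 43782308 to 43838218) was at 114.2, 6.21, 104.5 and 77.8 CPM in transgenic wall, against 3.93, 4.32, 2.98 and 3.23 CPM in control wall. Even the low transgenic library was above every control, and the fitted log2 fold change was 4.40 ± 0.62 (adjusted p = 0.00516, edgeR). Gm10768, a long noncoding RNA that starts 585 bases past the end of Abcc2 on the same strand, followed the same pattern. It was at 30.4, 1.42, 25.1 and 21.7 CPM in transgenic wall, against 0.43, 0.30, 0.48 and 0.43 CPM in control wall (5.53 ± 0.71, adjusted p = 0.00511, edgeR). Whether these counts are a separate transcript or reads past the end of Abcc2 was not tested.

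Gclc, the catalytic subunit of glutamate-cysteine ligase and the rate-limiting enzyme of glutathione synthesis, had the highest transgenic levels of the called genes. It was at 734.8, 104.3, 693.5 and 381.1 CPM in transgenic wall, against 86.8, 107.3, 69.8 and 75.8 CPM in control wall. Transgenic replicate 2 was inside the control range and the other 3 were far above it, with a fitted 2.49 ± 0.44 (adjusted p = 0.0344, edgeR). Slc7a11, which imports the cystine that glutathione needs, was at 37.2, 4.80, 34.7 and 12.1 CPM in transgenic wall, against 4.44, 3.77, 2.98 and 2.75 CPM in control wall (2.67 ± 0.52, adjusted p = 0.0449, edgeR). Of the 14 tested genes of glutathione synthesis and cystine import, 2 passed as higher and none as lower, and the median was 0.04. Gclm was at 255.1, 45.4, 216.0 and 179.8 CPM in transgenic wall, against 53.2, 55.8, 57.3 and 47.9 CPM in control wall, so that replicate 2 was below every control and the other 3 were above every control. It missed the threshold (1.70 ± 0.38, adjusted p = 0.0888, edgeR) and passed without transgenic replicate 2. Gss and Gsr, which complete and regenerate glutathione, were fitted 0.83 ± 0.27 and 0.53 ± 0.21 higher and missed it.

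The alpha-class glutathione S-transferase genes Gsta1, Gm3776, Gm10639 and Gsta2 lie on chromosome 9 between 78230669 and 78347145. Their transcripts were 96.7% to 99.5% identical, so reads may be shared among them and single levels are uncertain. Gsta2 was at 15.4, 0.033, 11.8 and 13.1 CPM in transgenic wall, against 0.087, 0.171, 0.056 and 0.026 CPM in control wall. It was near 0 in every control and in transgenic replicate 2 (7.22 ± 1.33, adjusted p = 0.0348, edgeR). Gm3776 was at 253.1, 21.1, 203.8 and 106.4 CPM in transgenic wall, against 13.9, 7.19, 13.6 and 5.18 CPM in control wall (3.87 ± 0.69, adjusted p = 0.0344, edgeR). Gm10639 was at 10.5, 1.41, 9.77 and 4.78 CPM in transgenic wall, against 0.43, 0.26, 0.57 and 0.37 CPM in control wall (3.95 ± 0.62, adjusted p = 0.0150, edgeR). For both, all 4 transgenic libraries were above all controls. Gsta1 itself, at 340.9, 36.8, 279.6 and 150.0 CPM in transgenic wall, against 27.1, 13.02, 32.2 and 10.3 CPM in control wall, just missed the threshold (3.28 ± 0.66, adjusted p = 0.0527, edgeR). The promoter windows of Gsta1 and Gm10639 were 97.9% identical over 285 aligned bases, and they were 80.3% and 80.9% identical to that of Gsta2. Both are shown to let the near copies be compared, and neither holds the TGACNNNGC core.
Gsta1, chr9:78230419-78230718, plus strand: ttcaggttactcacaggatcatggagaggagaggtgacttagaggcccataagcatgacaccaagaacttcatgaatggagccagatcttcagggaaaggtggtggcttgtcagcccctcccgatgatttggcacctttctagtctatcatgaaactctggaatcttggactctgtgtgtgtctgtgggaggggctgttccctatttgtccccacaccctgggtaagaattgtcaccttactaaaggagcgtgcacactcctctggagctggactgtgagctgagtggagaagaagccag
Gm10639, chr9:78289678-78289977, plus strand: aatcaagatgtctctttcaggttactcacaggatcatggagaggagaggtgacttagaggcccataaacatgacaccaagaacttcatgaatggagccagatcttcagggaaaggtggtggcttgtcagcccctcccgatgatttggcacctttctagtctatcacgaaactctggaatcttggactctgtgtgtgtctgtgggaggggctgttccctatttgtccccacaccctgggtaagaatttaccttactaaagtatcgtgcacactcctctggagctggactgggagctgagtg

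Over the list of glutathione S-transferases, which attach glutathione to reactive compounds, 1 of 22 passed as higher, none passed as lower and the median was 0.35. Of these 22, 6 were higher at an unadjusted p below 0.05, against 6.2% of all genes. Gstm1 was at 1171, 461.5, 988.6 and 1142 CPM in transgenic wall, against 476.7, 472.7, 411.0 and 276.1 CPM in control wall (1.2 ± 0.39). Gsta3, whose promoter is shown above, was at 133.3, 33.6, 101.9 and 99.2 CPM in transgenic wall, against 32.7, 40.03, 35.8 and 20.0 CPM in control wall (1.52 ± 0.71). In both, transgenic replicate 2 was within the control range and the other 3 libraries were above it.

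Genes of quinone, carbonyl and thioredoxin reduction were all fitted above 0, 18 of 18, with a median of 0.45, and none passed the threshold. Nqo1, the quinone reductase often used as a gauge of NRF2 activity, was at 123.6, 21.4, 105.6 and 123.8 CPM in transgenic wall, against 24.6, 29.2, 21.2 and 12.1 CPM in control wall (2.11 ± 0.49, adjusted p = 0.0985, edgeR). It passed without transgenic replicate 2. Cbr3, a carbonyl reductase, was at 226.2, 26.5, 180.1 and 178.6 CPM in transgenic wall, against 50.5, 63.8, 52.1 and 19.1 CPM in control wall (1.72 ± 0.58, adjusted p = 0.259, edgeR). In both genes 3 transgenic libraries were above all controls and replicate 2 was not. Srxn1, which repairs oxidised peroxiredoxins, was fitted 0.84 ± 0.36 higher, and Txnrd1, the cytosolic thioredoxin reductase, 0.26 ± 0.22. Hmox1, which breaks down heme, was at 21.1, 9.68, 18.5 and 6.35 CPM in transgenic wall, against 11.4, 8.09, 14.04 and 3.75 CPM in control wall, and the groups overlapped (0.57 ± 0.43, adjusted p = 0.726, edgeR).

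**Figure D2:**
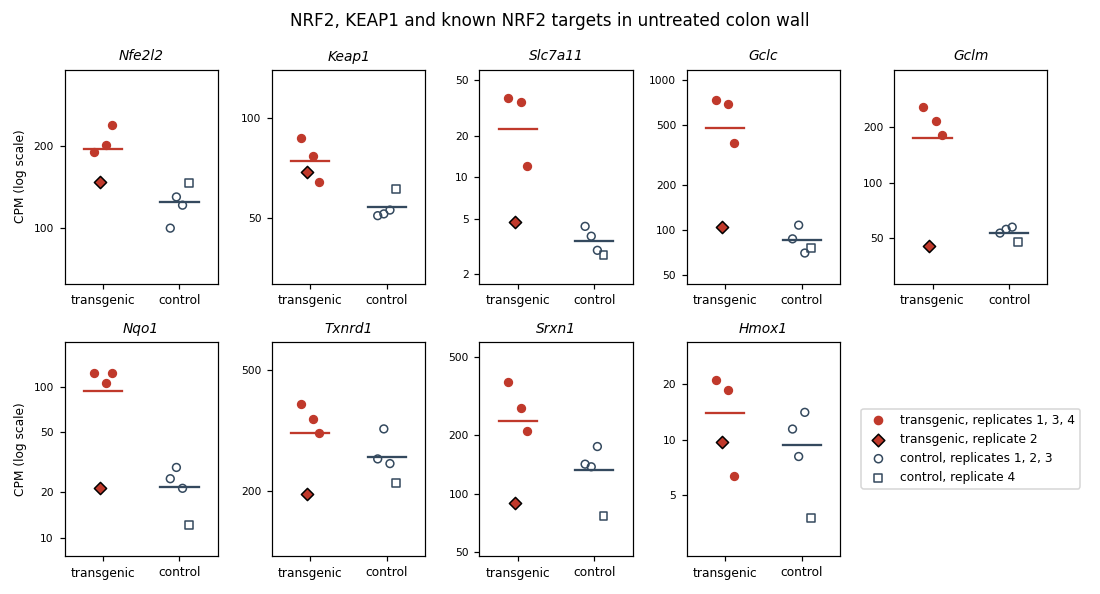
Each panel shows 1 gene, with CPM on a log axis, the 4 transgenic libraries on the left, the 4 controls on the right and a bar at each group mean. For Gclc, Gclm and Nqo1, 3 transgenic libraries lie above all controls and transgenic replicate 2 (diamond) lies within or below the control range, whereas Keap1 and Nfe2l2 show all 4 transgenic libraries above the controls.

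Of the 7 NADPH-producing enzymes, all 7 were fitted above 0 with a median of 0.37, and none passed. Of the 10 efflux pumps, all 10 were fitted above 0 with a median of 0.52, and Abcc2 alone passed. Abcc4, which exports conjugates and cyclic nucleotides, was at 124.9, 30.8, 136.3 and 122.0 CPM in transgenic wall, against 35.4, 36.4, 34.2 and 33.3 CPM in control wall (1.57 ± 0.32, adjusted p = 0.0556, edgeR). Replicate 2 was below the lowest control there. Among 35 drug-metabolising enzymes of phase I and II, 28 were fitted above 0, the median was 0.32, and Cyp4f39 alone passed. Cyp4f39 was at 24.4, 3.61, 21.1 and 3.44 CPM in transgenic wall, against 1.42, 0.26, 1.07 and 0.82 CPM in control wall, so that transgenic replicates 2 and 4 were both low but above all controls (3.82 ± 0.72, adjusted p = 0.0376, edgeR). Ces1g, a carboxylesterase, was at 114.9, 6.94, 125.6 and 213.2 CPM in transgenic wall, against 8.75, 5.65, 8.16 and 7.11 CPM in control wall (3.95 ± 0.84, adjusted p = 0.0647, edgeR). In the NRF2 lists the medians stand beside -0.02 for all genes.

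Further genes with high transgenic levels and a low replicate 2 were not members of those lists. Il1f9, which encodes the barrier cytokine interleukin 36 gamma, was at 8.59, 0.42, 6.36 and 4.46 CPM in transgenic wall, against 0.26, 0.39, 0.20 and 0.38 CPM in control wall (4.01 ± 0.63, adjusted p = 0.0150, edgeR). Acox2, a peroxisomal oxidase of branched fatty acids and bile acid precursors, was at 6.70, 2.13, 6.46 and 3.44 CPM in transgenic wall, against 0.81, 1.16, 0.92 and 0.64 CPM in control wall (2.42 ± 0.41, adjusted p = 0.0265, edgeR). D630045J12Rik rose by 1.96 ± 0.38, though replicate 2 was inside the control range. H60c, a ligand of the killer-cell receptor NKG2D, was at 5.35, 0.85, 5.89 and 5.43 CPM in transgenic wall, against 0.52, 0.81, 0.73 and 0.84 CPM in control wall. It did not pass (2.58 ± 0.58, adjusted p = 0.0909, edgeR).

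Ikbkg (chromosome X, 74393291 to 74453778) was the only one of 15 NF-kappaB genes to pass the threshold as higher, and none passed as lower. It was at 121.0, 56.2, 121.8 and 63.0 CPM in transgenic wall, against 40.6, 37.6, 37.8 and 47.6 CPM in control wall, with no overlap (1.14 ± 0.22, adjusted p = 0.0389, edgeR). The deposited transcript values divide by start site. Transcripts from the second start, at 74424612, whose promoter holds the TGACNNNGC core shown above, were listed at 9.28, 1.35, 9.43 and 3.08 TPM in transgenic wall, against 0.71, 0, 0.61 and 0.78 TPM in control wall. Those from the start at 74429681 were at 17.5, 10.9, 13.5 and 10.4 TPM in transgenic wall, against 8.11, 6.99, 7.5 and 11.4 TPM in control wall, where the groups overlapped. For the second start they did not. Transcripts from the start at 74393291 were at 3.86, 0.58, 0 and 0.82 TPM in transgenic wall, against 0.37, 0, 0 and 0.38 TPM in control wall. Those from the start at 74429315 were at 0, 0.49, 8.42 and 1.14 TPM in transgenic wall, against 0.26, 2.61, 0.31 and 1.83 TPM in control wall. At both of these starts the groups overlapped, and transgenic replicates 1 and 3 were far apart. These are estimates that divide reads among overlapping transcripts, and no test was made on them. Ikbkg overlaps G6pdx on the opposite strand, and without a stated strand setting reads of these genes cannot be told apart there. G6pdx was fitted 0.06 higher.

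Dapp1 and Sstr1 led the called genes in which replicate 2 went with the other transgenic libraries. Dapp1, a phosphoinositide-binding adaptor protein, was at 31.2, 30.3, 31.0 and 21.5 CPM in transgenic wall, against 12.9, 11.5, 10.8 and 14.9 CPM in control wall (1.19 ± 0.16, adjusted p = 0.00511, edgeR). Sstr1, a somatostatin receptor, was at 38.9, 27.9, 45.0 and 28.4 CPM in transgenic wall, against 14.6, 10.7, 13.5 and 16.4 CPM in control wall (1.34 ± 0.19, adjusted p = 0.00511, edgeR). In both genes all 4 transgenic libraries were above all controls. Il7, a growth factor of lymphocytes, was at 15.3, 11.5, 17.3 and 9.91 CPM in transgenic wall, against 5.22, 3.55, 6.49 and 8.16 CPM in control wall (1.19 ± 0.22, adjusted p = 0.0348, edgeR). It was the only one of the 32 tested genes of the cytokine and chemokine list to pass, and the median of that list was -0.41. The list leaves out the cytokine gene Il1f9, which was also called higher. Ddit4l, an inhibitor of mTOR signalling, Stc2, a secreted stanniocalcin, and Parp16, an ADP-ribosyltransferase of the endoplasmic reticulum, rose by 1.47 ± 0.27, 2.40 ± 0.46 and 0.94 ± 0.16, though the groups overlapped in Stc2. Nat2, an arylamine acetyltransferase, Fbxl8, an F-box protein, B3gntl1, a glycosyltransferase-like protein, and the antisense transcript Gm16516 rose by 0.90 to 1.32. Gm16516 was counted without a stated strand setting, so its reads may belong to genes on the other strand.

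In all 14 genes called lower, transgenic replicate 2 was below every control. Rfx2, a transcription factor of ciliary genes, was at 2.88, 2.01, 2.39 and 4.15 CPM in transgenic wall, against 12.6, 9.38, 10.7 and 11.03 CPM in control wall (-1.94 ± 0.26, adjusted p = 0.00511, edgeR). Vgll3, a cofactor of TEAD transcription factors, was at 1.93, 1.87, 2.26 and 1.99 CPM in transgenic wall, against 4.68, 4.67, 4.53 and 4.82 CPM in control wall (-1.22 ± 0.17, adjusted p = 0.00511, edgeR). The libraries of each group were tightly clustered in Vgll3. Slc34a2, a sodium-phosphate transporter, was at 9.94, 20.6, 8.47 and 33.1 CPM in transgenic wall, against 101.1, 47.4, 129.4 and 70.7 CPM in control wall (-2.26 ± 0.38, adjusted p = 0.0221, edgeR). It was the only one of 21 genes of colonocyte ion, phosphate and water transport to pass as lower, and none passed as higher.

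Tnfrsf12a, the receptor of the cytokine TWEAK, was at 9.13, 8.07, 7.29 and 11.9 CPM in transgenic wall, against 53.8, 79.8, 74.6 and 10.9 CPM in control wall (-2.59 ± 0.49, adjusted p = 0.0389, edgeR). Control replicate 4 was inside the transgenic range, and the other 3 controls were far above it. The same library was the lowest control in 7 of the 14 genes called lower and the highest control in 9 of the 22 called higher. Nfatc2, a transcription factor of calcium signalling, was at 11.7, 11.2, 13.1 and 13.4 CPM in transgenic wall, against 34.03, 38.7, 32.4 and 14.2 CPM in control wall (-1.27 ± 0.23, adjusted p = 0.0348, edgeR). Dusp10, a phosphatase of stress kinases, Pdp1, which activates pyruvate dehydrogenase, and Asb5, a muscle-expressed ankyrin repeat protein, fell by 1.24 ± 0.23, 1.02 ± 0.20 and 2.62 ± 0.47 on the log2 scale. Gdf5, a growth factor of the bone morphogenetic protein family, was low throughout, at 0, 0.039, 0.064 and 0.084 CPM in transgenic wall, against 0.62, 0.69, 0.37 and 0.41 CPM in control wall. The remaining lower genes were 2210407C18Rik, Efhb, Filip1l, Tsc22d2 and Iffo2, with log2 fold changes from -1.42 to -0.65.

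In the genes of circadian output, transgenic replicate 2 went with the other transgenic libraries, whereas the 14 tested genes of the clock itself were fitted on both sides of 0. The clock is driven by the BMAL1 (Arntl) and CLOCK or NPAS2 proteins. Their repressors include the PER, CRY and NR1D proteins, and DBP, TEF and HLF carry the rhythm to output genes, opposed by NFIL3. No gene of either list passed the threshold. Of the 4 output genes, all 4 had groups that did not overlap, 3 higher and 1 lower in transgenic wall, against 3.79% and 2.85% of all genes. Dbp (chromosome 7, 45705247 to 45710203) was at 206.8, 126.7, 197.2 and 50.7 CPM in transgenic wall, against 38.9, 20.6, 40.9 and 5.73 CPM in control wall (2.45 ± 0.69, adjusted p = 0.174, edgeR). In each group replicate 4 was the lowest.

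Tef was at 196.1, 144.1, 229.4 and 81.5 CPM in transgenic wall, against 66.0, 58.1, 71.5 and 28.3 CPM in control wall (1.54 ± 0.38, adjusted p = 0.126, edgeR). Hlf was at 13.5, 9.68, 15.98 and 8.16 CPM in transgenic wall, against 4.06, 3.21, 4.30 and 6.30 CPM in control wall (1.39 ± 0.28, adjusted p = 0.0527, edgeR). Nfil3 was at 1.89, 2.47, 1.21 and 2.88 CPM in transgenic wall, against 10.9, 18.03, 9.81 and 6.93 CPM in control wall (-2.40 ± 0.55, adjusted p = 0.0909, edgeR). In all 4 transgenic libraries Nfil3 was thus below and the other 3 output genes above every control. Of the 14 genes of the clock itself, Per3 was at 65.8, 53.5, 66.1 and 36.8 CPM in transgenic wall, against 20.8, 16.6, 16.8 and 23.8 CPM in control wall (1.51 ± 0.31, adjusted p = 0.0565, edgeR). Arntl was at 17.005, 25.04, 19.4 and 36.0 CPM in transgenic wall, against 36.7, 40.9, 38.4 and 83.8 CPM in control wall (-1.03 ± 0.29, adjusted p = 0.179, edgeR). In both groups replicate 4 had the highest Arntl and, among the output genes, the lowest Dbp and Tef. Of the 14, 7 were fitted above 0, the median was -0.06, and the groups did not overlap in Per3, which was higher, and in Arntl, which was lower. Over the 14, the median difference from the control mean was 0.18, -0.32, 0.19 and -0.05 in transgenic replicates 1 to 4 on the log2(CPM + 0.5) scale, so replicate 2 was the lowest. Without control replicate 4, Per3 and Hlf passed higher and Nfil3 lower. The part of the hour of sampling in these differences was not tested.

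**Figure D3:**
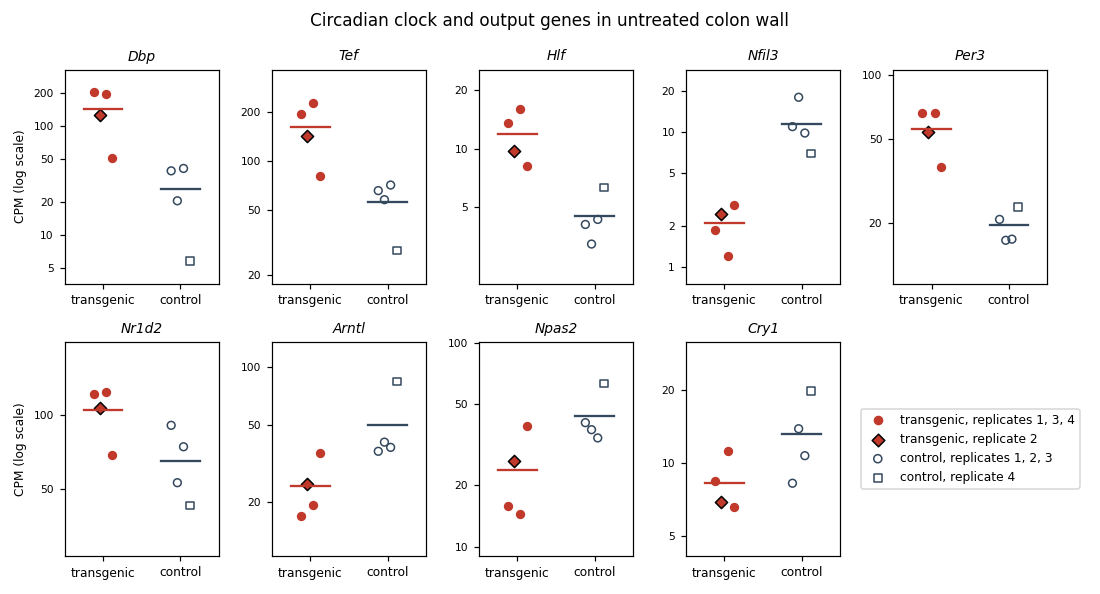
Each panel shows 1 clock or output gene, with CPM on a log axis, the 4 transgenic libraries on the left, the 4 controls on the right and a bar at each group mean. Dbp, Tef, Hlf and Per3 lie above and Nfil3 and Arntl below all controls in the transgenic libraries, replicate 2 (diamond) included, and the square marks control replicate 4.

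Immediate early genes, which cells switch on within minutes of a stimulus, had a median of -0.71, and 2 of 23 were fitted above 0. None passed the threshold. In 5 of 23 the groups did not overlap, all lower in transgenic wall, against 2.85% of all genes. Fosl1, a partner of the JUN proteins, was at 4.23, 1.65, 1.21 and 2.02 CPM in transgenic wall, against 21.6, 30.5, 35.2 and 1.41 CPM in control wall (-3.31 ± 0.74, adjusted p = 0.0885, edgeR). Fosb, another such partner, was at 2.83, 1.81, 0.89 and 15.7 CPM in transgenic wall, against 77.1, 33.1, 45.7 and 17.2 CPM in control wall (-3 ± 1.28, adjusted p = 0.411, edgeR). In Fosl1 control replicate 4 was inside the transgenic range, and in Fosb both libraries numbered 4 were nearly equal. Without control replicate 4, Fosl1 and Nr4a3, an orphan nuclear receptor, passed as lower.

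Thbs1, a matrix glycoprotein of injured tissue, was at 76.3, 39.7, 42.1 and 39.2 CPM in transgenic wall, against 422.5, 503.9, 368.2 and 93.3 CPM in control wall (-2.82 ± 0.60, adjusted p = 0.0658, edgeR). Ccl2 and Ccl7, chemokines that attract monocytes, were at 0.14 to 0.38 and 0.19 to 0.36 CPM in transgenic wall, against 0.69 to 6.12 and 0.78 to 5.18 CPM in control wall, with no overlap and no call (-3.33 ± 0.97 and -3.31 ± 0.82). Hspa1a, an inducible heat shock chaperone, was at 18.9, 12.5, 17.2 and 19.5 CPM in transgenic wall, against 42.4, 72.6, 39.9 and 24.3 CPM in control wall (-1.40 ± 0.34, adjusted p = 0.124, edgeR). In each of these genes control replicate 4 was the control nearest to the transgenic libraries. The 15 NF-kappaB genes had a median of -0.29, and 5 of the 15 were lower without overlap, against 2.85% of all genes. Besides Ikbkg, 7 of them were lower at an unadjusted p below 0.05 (4.26% of all genes were), among them Nfkb2 (-0.51 ± 0.14), Rel (-1.14 ± 0.47) and Rela (-0.31 ± 0.13). Interferon-stimulated genes had a median of 0.28, and 5 of 22 were higher without overlap, against 3.79% of all genes, with none past the threshold. At an unadjusted p below 0.05, 1 of the 22 was higher, against 6.2% of all genes. The median difference from the control mean was 0.05, 0.10, 0.16 and 0.46 in transgenic replicates 1 to 4 on the log2(CPM + 0.5) scale. The summed levels of the list overlapped between the groups.

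Among the genes outside the lists with large differences and no overlap, Gm8615 was at 7.92, 7.92, 9.39 and 0.23 CPM in transgenic wall, against 0, 0, 0 and 0.10 CPM in control wall. It did not pass, and transgenic replicate 4 was far below the other 3. Krt36, a hair-type keratin, was at 1.62, 0.97, 0.67 and 1.72 CPM in transgenic wall, against 4.82, 12.9, 28.9 and 2.25 CPM in control wall (-3.30 ± 0.75, adjusted p = 0.0909, edgeR). Nr1h5, a nuclear receptor gene, was at 0.54, 0.57, 0.35 and 0.55 CPM in transgenic wall, against 8.63, 0.69, 6.10 and 0.75 CPM in control wall, where the controls themselves fell into high and low libraries. Mfsd2a, a lipid transporter, was at 0.60 to 1.035 CPM in transgenic wall, against 1.38 to 8.78 CPM in control wall.

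**Figure D4:**
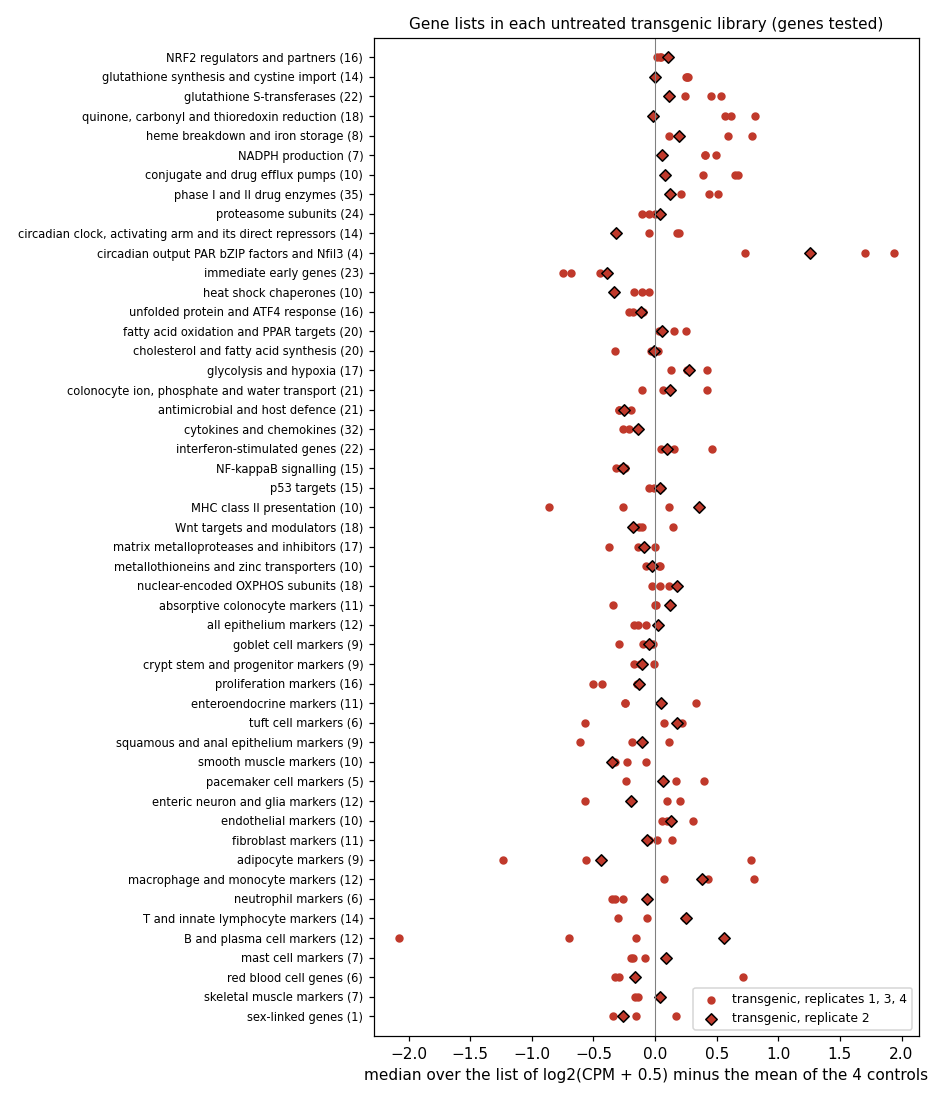
Each row is a gene list with the number of its genes tested, and each point is 1 transgenic library, placed by the median over the list of its log2(CPM + 0.5) minus the mean of the 4 controls. In the quinone and efflux rows, transgenic replicate 2 (diamond) lies near 0 and the other 3 libraries to the right, whereas in the circadian output and immediate early rows all 4 lie on the same side of 0.

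The summed level of 12 genes expressed throughout colon epithelium was 17410 to 21290 CPM in transgenic wall, against 14747 to 24811 CPM in control wall. That of 10 smooth muscle genes was 11109 to 13226 CPM in transgenic wall, against 13291 to 15463 CPM in control wall, so the muscle sums did not overlap (median -0.25). The sum of 12 macrophage and monocyte genes was 204.5 to 308.3 CPM in transgenic wall, against 154.8 to 201.0 CPM in control wall, again without overlap. Of the 12, 11 were fitted above 0 (median 0.42). Taken singly, 0 of the 12 macrophage genes were higher without overlap, against 3.79% of all genes. Of the 10 muscle genes, 1 was lower without overlap, against 2.85% of all genes. The part of the muscle and macrophage shifts in the other differences was not tested. Medians further from 0 were those of adipocyte (-0.71), B and plasma cell (-0.635) and neutrophil genes (-0.48), whose sums overlapped between the groups. Proliferation genes were all fitted below 0, 16 of 16, with a median of -0.29. In the 22 marker lists no gene passed. Car1, a carbonic anhydrase of absorptive colonocytes, was at 4694, 2089, 5615 and 4000 CPM in transgenic wall, against 1929, 496.3, 2023 and 1577 CPM in control wall (1.44 ± 0.40, adjusted p = 0.163, edgeR). It was not typical of the absorptive colonocyte markers, of which 4 of 11 were fitted above 0 with a median of -0.10. The genes of squamous epithelium, which lines the anal canal, summed to 11.95 to 21.7 CPM in transgenic wall, against 11.1 to 52.2 CPM in control wall, and 3 controls exceeded every transgenic library.

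Set beside the wall after DSS, where transgenic and control libraries are other samples, the called genes divided again. Of the 22 genes called higher, 15 were also fitted above 0 after DSS, and of the 14 called lower, 5 were fitted below 0, where 45.7% of all genes had the same sign in both. Abcc2 was fitted at 4.40 ± 0.62 in untreated wall and 3.18 ± 0.59 after DSS, Gclc at 2.49 ± 0.44 and 3.13 ± 0.45, Slc7a11 at 2.67 ± 0.52 and 2.66 ± 0.52, and Il1f9 at 4.01 ± 0.63 and 3.54 ± 0.61. After DSS all 4 transgenic libraries had high Gclc, at 314.7, 529.2, 630.4 and 847.0 CPM, against 72.1, 70.4, 44.6 and 77.2 CPM in the DSS controls. Of the 40 NRF2 list genes that were higher at an unadjusted p below 0.05 in untreated wall, 37 were fitted above 0 after DSS.

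In contrast, Dapp1 was fitted at 1.19 ± 0.16 in untreated wall and -0.19 ± 0.16 after DSS, Sstr1 at 1.34 ± 0.19 and -0.20 ± 0.18, Rfx2 at -1.94 ± 0.26 and 0.18 ± 0.25, and Vgll3 at -1.22 ± 0.17 and 0.34 ± 0.16. The difference of the transgene effect, untreated minus DSS, was tested for every gene, and 0 of 16074 passed in edgeR's test (0%). At an unadjusted p below 0.05 there were 1279 genes (7.96%), and DESeq2 called 40. Vgll3 came closest, with a difference of -1.56 ± 0.23 and an adjusted p of 0.0685, followed by Dapp1 (1.38 ± 0.22, adjusted p = 0.0744, edgeR). Of the 36 called genes, 22 had an unadjusted p of the difference below 0.05, but they were chosen for their untreated effect, which enters that difference. Dbp was fitted at 2.45 ± 0.69 in untreated wall and -0.07 ± 0.66 after DSS, Nfil3 at -2.40 ± 0.55 and 0.30 ± 0.51, and Thbs1 at -2.82 ± 0.60 and 0.50 ± 0.56.

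In epithelial cells, 28 of the 36 genes had enough counts, and 21 of the 28 had the same sign as in untreated wall, where 58.9% of 12881 genes did. The difference of mean log2(CPM + 0.5), transgenic minus control, was 1.67 for Gclc, 2.56 for Slc7a11, 2.39 for Gm3776 and 2.92 for Il1f9. Abcc2, the gene with the clearest change in wall among the efflux pumps, was at 5.41, 1.42, 0 and 0 CPM in transgenic epithelial cells, against 0.34, 0.57, 1.33 and 0.82 CPM in control epithelial cells, a difference of 0.10 between overlapping groups. Sstr1 was higher by 1.52 and Dapp1 lower by 0.30 on that scale. These values are given side by side with no test between tissues.

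**Figure D5:**
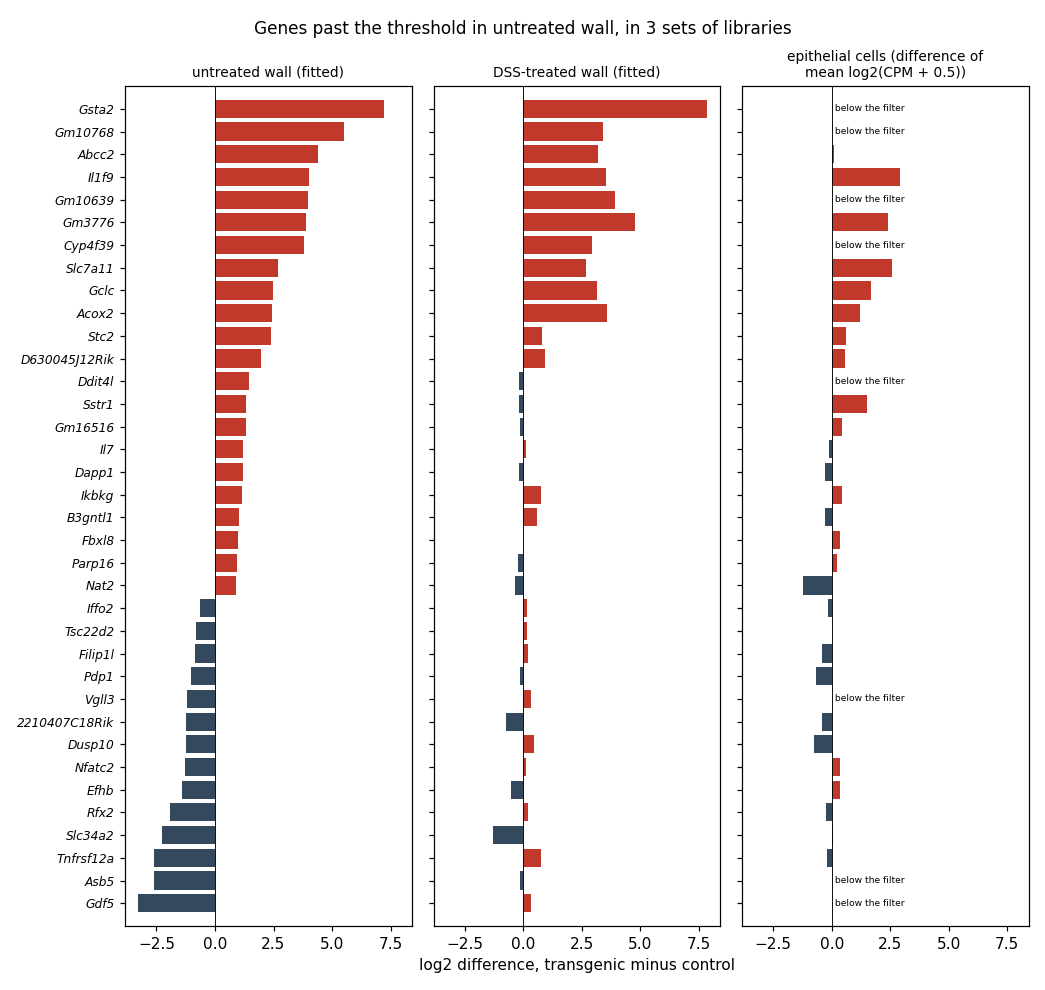
Bars show the log2 difference, transgenic minus control, of the 36 called genes in untreated wall and DSS-treated wall (both fitted) and in epithelial cells (difference of mean log2(CPM + 0.5)). The 10 uppermost genes are higher in both wall sets, whereas most of the lower genes lie close to 0 after DSS.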

How the data were processed

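Whole colon wall RNA was sequenced by Illumina, per the labels' protocols. Each deposited file gives, per the file headers, an expected count, a posterior estimate of that count and TPM for 30383 RefSeq transcripts. RSEM 1.2.11, FastQC and mm10 are named in the submitters' processing notes, without role. Aligner, strand setting, filters and RefSeq release: not given in the sources used here. Of the authors' expected counts, 39.2% were not whole. They were summed per gene symbol (23329 symbols) and rounded. The authors' deposited TPM values were used only for Ikbkg transcripts.

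All 16 wall libraries were fitted together in edgeR 4.0.16 (R 4.3.3; quasi-likelihood F test, TMM scaling, filterByExpr, Benjamini-Hochberg adjustment, threshold 0.05), with a common biological coefficient of variation of 0.261. Contrasts were transgenic minus control without DSS, and that difference minus the one with DSS. SE was taken as the size of the log2 fold change over the root of F. The labels do not say that replicates came from separate animals, and the series text speaks of triplicates, so a p-value here speaks only of the variation among these libraries, which may be partly technical. No pair of libraries within a group agreed within sampling noise. The steps were also run on simulated counts. No simulated library was made to deviate from its group, so that run does not cover a library such as transgenic replicate 2.

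The genes, lists and tests were chosen with earlier results of these data known. Named genes are all those called, up to 4 members of each list by smallest p, 9 core NRF2 genes, and the 10 of each direction with the largest fold change among genes without overlap and with a mean of at least 1 CPM. Lists are described by counts and medians only. Alternatives were other scalings, filters, DESeq2 1.42.0, limma 3.58.1 voom, the deposited posterior count estimates, a replicate block, a term for the number in the deposited names, and leaving out each library. FPKM and the other deposited expression columns were not used.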

Additional observations from a re-analysis of the deposited data

Results flagged for a closer look

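In 8 of 124 groups of 4 libraries examined (6.45%), 1 library stood apart by Dixon's test at the 95% level, which sets the gap to the nearest library against the range of the group. Chance alone would flag about 1 in 20 groups of unselected, normally spread values. The groups here were those of called genes, core NRF2 genes, genes with large differences and no overlap, and summed NRF2 lists. Most were thus chosen by these same values, and the share flagged cannot be judged against that rate. Transgenic replicate 4 was low for Dapp1 (21.53 CPM) and for Gm8615 (0.234 CPM) and high for Fosb (15.71 CPM). Control replicate 4 was high for Gm16516 (1.888 CPM) and for Gm8615 (0.1044 CPM). Transgenic replicate 2 was low for H60c (0.8485 CPM), transgenic replicate 3 was low for Nr1h5 (0.3501 CPM), and transgenic replicate 1 was high for Thbs1 (76.3 CPM). Of the 8 values, 5 came from libraries numbered 4.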

How the results depend on the processing

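The count of 36 genes was 33 with RLE size factors, 34 with upper quartile scaling, 40 without a filter, 36 with a stricter filter and 36 with posterior counts. It moved to 235 with DESeq2 (36 of them shared), 10 with voom, 2491 with voom and quality weights, 19 with a term for the number in the deposited names and 404 with only the 12 libraries of the first number (34 shared). Fits of only the 8 untreated libraries gave 10 genes. Leaving out 1 library gave 5 to 320. The replicate block gave 7 genes, and 16 when only the 8 untreated libraries were fitted. Between the groups, deviations of libraries of the same number correlated at -0.07, -0.19, -0.08 and 0.20 for numbers 1 to 4. Only the value for number 4 was above 0, and values between different numbers ran from -0.27 to 0.33. Not every library correlated best with its own number. For the difference between untreated and DSS-treated wall the count of 0 moved to 40 with DESeq2, 2 with voom, 113 with voom and quality weights and 98 with the first number only, and ranged from 0 to 93 when 1 library was left out. The causes of these moves were not tested. Rfx2 and Sstr1 passed in 21 of 21 alternatives, Dapp1, Gm10768 and Vgll3 in 20, Abcc2 in 17 and Nat2 and Fbxl8 in 8. No called gene turned its direction. Lep, an adipocyte hormone that was not called, turned to 0.37 with voom and quality weights, and it ranged from -4.82 to 1.55 when 1 library was left out, turning only without control replicate 2. Some called genes rest on few counts: Gdf5 had 0, 6, 2 and 5 counts in the transgenic libraries, against 36, 16, 33 and 47 in the controls, so its fold change depends on few reads.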

Other observations

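Some gene groups outside the NRF2 and stress lists had members with shifted levels and none past the threshold. Of 17 tested genes of glycolysis and hypoxia, 15 were fitted above 0 (median 0.31), and Ndrg1, a hypoxia-inducible gene, was at 213.5, 235.2, 241.5 and 150.9 CPM in transgenic wall, against 145.8, 120.8, 158.6 and 124.9 CPM in control wall (0.61 ± 0.19). Hk2, a hexokinase of the same list, went the other way (-0.71 ± 0.31). Pdk4, an inhibitor of glucose oxidation, was at 62.0, 40.03, 21.7 and 10.4 CPM in transgenic wall, against 8.87, 11.6, 9.97 and 8.99 CPM in control wall. Mt2, a metallothionein that binds zinc and copper, was at 211.8, 238.2, 185.3 and 164.0 CPM in transgenic wall, against 49.0, 87.0, 96.6 and 15.9 CPM in control wall (1.69 ± 0.64), with no overlap and with replicate 2 the highest transgenic library. It was not typical of its list, as 4 of 10 tested metallothionein and zinc transporter genes were fitted above 0 (median -0.09). Of 21 antimicrobial and host defence genes, 5 were fitted above 0 (median -0.44). Proteasome subunits, a further known class of NRF2 targets, had a median of -0.05 over 24 genes.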
